A study of Mus musculus with 50 samples.

Results

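The 10 genes described here, Hspa5, Hsp90b1, Hyou1, Calr, Canx, Pdia4, Pdia6, Creld2, Sdf2l1 and Manf, encode chaperones, folding enzymes and cofactors of the endoplasmic reticulum (ER). They were chosen by symbol, with earlier results of these data known. All 10 were found among the 39056 entries of the gene table and among the 16460 genes with enough reads to be tested. RNA had been sequenced from developing oligodendrocytes of C57BL/6 mice, wild type or homozygous null for Nrf2 (gene symbol Nfe2l2, a transcription factor of the oxidative stress response). Precursor cells had been immunopanned from the cortices of pups 6 days old, carried through 2 passage cycles and left to differentiate for 12 to 14 h before treatment. Cells of each genotype were left untreated or received 200 U/ml interferon-γ (IFN-γ) for 1, 8, 24 or 48 h, or thapsigargin, labelled as 200 µM, for 1 or 8 h. This gave 20 groups and 50 libraries, with 2 libraries in each wild-type group and 3 in each Nrf2 -/- group. The labels name no other allele, transgene or Cre, and say that plates of these cultures were assigned to treatments at random.

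Proteins that enter the secretory pathway fold in the ER lumen with the help of chaperones that bind unfolded chains, lectins that hold glycoproteins, and isomerases that make and break disulfide bonds. When unfolded protein accumulates, the sensors ATF6, IRE1 and PERK start the unfolded protein response, in which ATF6 and XBP1 bind promoters of chaperone genes and raise their transcription. Thapsigargin, an inhibitor of the calcium pump that fills the ER, empties the ER calcium store on which several of these proteins depend. Oligodendrocytes make myelin, a large sheet of membrane whose proteins and lipids pass in part through the ER, and both stress of the ER and IFN-γ have been studied in these cells in demyelinating disease.

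Total counts per library were between 32252272 and 54657205, with a median of 36046423, and the lowest count of any member in any library was 464 (Creld2). Markers of the oligodendrocyte lineage were present in every library, and their list summed to between 913 and 2650 CPM (the usual read counts scaled to library size, here with factors from the trimmed mean of M-values). Of 8 microglial markers, 7 were below 1 CPM in all libraries, with Aif1 and C1qa at 0 throughout, and all 8 endothelial, mural and fibroblast markers were below 1 CPM, with Cldn5 at 0 throughout. The lists of other cell types were not absent as a whole. The neuron list summed to between 673 and 1740 CPM and the astrocyte list to between 99.0 and 363 CPM. In each condition 2 or 3 of the 7 neuron markers were below 1 CPM in all libraries, so the neuron sum rests on the others. Of the microglial markers, 1 was among the tested genes. These sums are not counts of cells. Nfe2l2 was between 5.12 and 70.4 CPM in the 20 wild-type libraries and between 0.0973 and 0.859 CPM in 29 of the 30 Nrf2 -/- libraries. The library labelled Nrf2 -/- untreated 8 h replicate 3 stood at 7.62 CPM, beside 5.12 and 10.1 CPM in the wild-type untreated 8 h libraries, so it went against its label. It was counted as Nrf2 -/-, and the main 8 h results are also given without it. In 3 further libraries, replicate 2 of the Nrf2 -/- 8 h groups, 2 fields of the label name different genotypes. Their Nfe2l2 levels, 0.178 to 0.669 CPM, go with the title, which was followed. The labels do not say that replicates came from separate cultures or litters, so the spread that p-values rest on is that between libraries and may be only technical.

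The promoters of the members are shown first. They were searched on both strands for the ER stress element (ERSE, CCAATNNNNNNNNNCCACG), at which ATF6 and the factor NF-Y are known to bind. RefSeq (GRCm38.p6) gave a window from 250 bases before to 50 bases after the start of transcription for 8 of the 10 members; Hyou1 and Manf had no entry. The full element was found in 6 of these 8 genes, against 39 of all 32851 promoter windows (0.119%). It is a published pattern for genes of this kind, so the contrast is a description and no independent test. The matches are shown with 5 bases on each side and read 5′ to 3′ along the strand that carries the element, with its fixed letters in capitals, so that the shared ends and the varying 9-base spacer can be compared.
Hspa5 (chr2:34772020-34772048, plus strand): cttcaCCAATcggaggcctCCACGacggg
Hsp90b1 (chr10:86705633-86705661, minus strand): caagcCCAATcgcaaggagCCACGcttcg
Hsp90b1 (chr10:86705528-86705556, plus strand): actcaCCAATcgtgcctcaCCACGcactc
Calr (chr8:84847070-84847098, plus strand): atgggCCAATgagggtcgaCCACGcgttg
Canx (chr11:50325795-50325823, minus strand): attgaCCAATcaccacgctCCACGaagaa
Pdia6 (chr12:17266486-17266514, plus strand): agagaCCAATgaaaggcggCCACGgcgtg
Creld2 (chr15:88819515-88819543, minus strand): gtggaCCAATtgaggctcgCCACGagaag

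The 7 elements began between 65 bases (Hspa5) and 212 bases (the farther of the pair in Hsp90b1) before the RefSeq start. The GENCODE span of Hspa5 (chr2:34771970-34777547, plus strand) begins earlier and includes its element. The Calr, Creld2 and nearer Hsp90b1 elements lay on the strand opposite to the gene. With the last 2 letters left off (CCAATNNNNNNNNNCCA, which every full element contains), 7 of the 8 genes had a match, against 1.09% of all windows; the gene added was Pdia4. Sdf2l1 had neither form. The letters of ERSE-II (ATTGGNCCACG, 0.0365% of windows), of an XBP1-type element (TGACGTGG, 0.676%) and of an ATF4-type element (TGATGNAA, 3.97%) were in none of the 8 windows, which says only that these letters are absent there. The plain CCAAT box, which the ERSE contains, was in all 8 and in 37.4% of all windows.

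**Figure D1:**
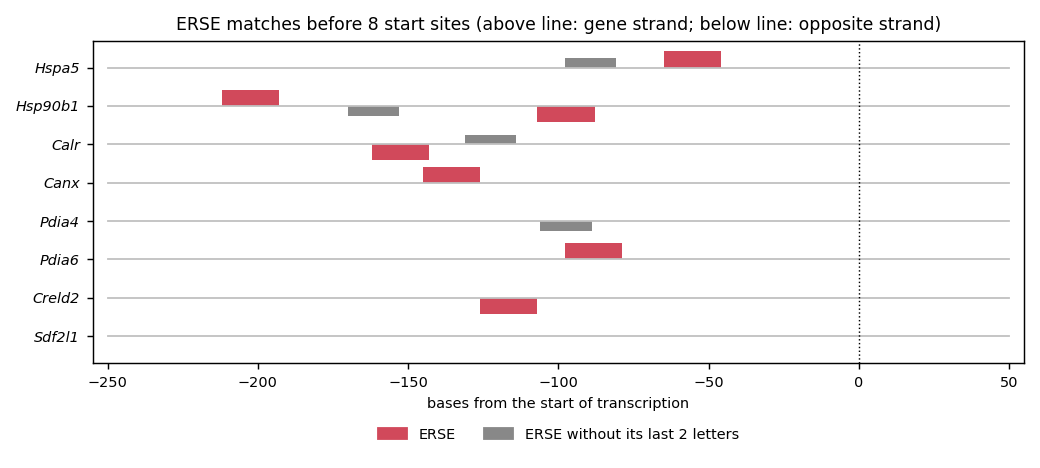
Positions of ERSE matches in the promoter windows of the 8 members with a RefSeq entry, in bases from the start of transcription (dotted line); red boxes are full elements and grey boxes are matches without the last 2 letters, above the line on the gene's strand and below it on the other. Red boxes are seen in 6 genes, beginning between 65 and 212 bases before the start, and none is seen in Pdia4 or Sdf2l1.

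For the genes with the largest and the smallest response to thapsigargin described below, Creld2 and Canx, the 250 bases before the start are given on the gene's strand, with the fixed letters of the ERSE in capitals. In Creld2 the element is on the opposite strand, so it reads there from its CGTGG end.
Creld2 (chr15:88819396-88819645, plus strand): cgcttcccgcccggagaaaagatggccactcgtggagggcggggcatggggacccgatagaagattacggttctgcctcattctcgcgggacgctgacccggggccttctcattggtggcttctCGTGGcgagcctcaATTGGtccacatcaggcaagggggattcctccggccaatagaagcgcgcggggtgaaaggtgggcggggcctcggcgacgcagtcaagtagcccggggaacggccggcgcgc
Canx (chr11:50325674-50325923, minus strand): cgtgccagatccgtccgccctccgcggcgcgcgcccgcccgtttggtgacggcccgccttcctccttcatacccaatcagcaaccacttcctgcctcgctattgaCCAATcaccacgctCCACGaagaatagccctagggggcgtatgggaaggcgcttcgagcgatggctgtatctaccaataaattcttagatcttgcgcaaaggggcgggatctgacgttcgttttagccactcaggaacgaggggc

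In untreated cells at 1 h, the lectin chaperones stood highest per kilobase of merged exon. This length takes in all annotated transcripts, 9 in Hyou1 and 1 each in Creld2 and Sdf2l1, so the order of genes depends in part on the annotation. Levels between genes are compared only as CPM per kilobase of merged exon, each as the median of 5 libraries with the lowest and highest. Calr, the soluble lectin calreticulin (chr8:84841850-84846934, minus strand), was at 259.1 (255.6 to 298.4), and Canx, its membrane-bound relative calnexin (chr11:50293961-50325673, minus strand), at 199.5 (189.5 to 201.1). Hspa5, the HSP70 chaperone BiP (chr2:34771970-34777547, plus strand), was at 119.4 (110.5 to 127.1). Hsp90b1, the HSP90 chaperone GRP94 (chr10:86690209-86705509, minus strand), was at 114.3 (103.0 to 118.2). The ranges of Hspa5 and Hsp90b1 overlapped, and those of Calr and Canx did not. Among the isomerases, Pdia4 (chr6:47796141-47813430, minus strand) was at 66.2 (61.8 to 69.9) and Pdia6 (chr12:17266545-17284770, plus strand) at 55.8 (47 to 61.0). Sdf2l1, a partner of an ER HSP40 cochaperone (chr16:17130138-17132383, minus strand), was at 31.7 (26.6 to 35.7). Manf, a small secreted ER protein that binds BiP (chr9:106838312-106891979, minus strand), was at 25.1 (24.1 to 27.9). Hyou1, the nucleotide exchange factor of BiP (chr9:44379490-44392369, plus strand), was at 22.4 (20.1 to 24.1), and Creld2, a cysteine-rich protein with isomerase activity (chr15:88819646-88826683, plus strand), at 18.8 (18 to 21.3). Neighbours in the order from Sdf2l1 down overlapped or met in their ranges. Coordinates are those of GENCODE M21 on GRCm38 and cover the whole gene.

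Thapsigargin for 8 h raised all 10 members, by 1.98-fold in Canx to 23.2-fold in Creld2, and it changed their order. Against untreated cells of the same hour, 10 of 10 members rose at an adjusted p below 0.05 (edgeR quasi-likelihood test, Benjamini-Hochberg over all tested genes), where 34.3% of all tested genes rose. In all 10 members the treated and untreated libraries were separated within each genotype, as in 28% of all genes. The median log2 fold of the members was 3.38, against 0.01 over all genes. Reads of the 10 genes together made up 0.478 to 0.525% of all counts in untreated libraries at 8 h and 3.09 to 3.39% after thapsigargin. Per kilobase of merged exon, Hspa5 was now highest, with a median of 2103 CPM, ahead of Hsp90b1 at 1674, Calr at 1335 and Pdia4 at 1281. Creld2 followed at 814.3 and Sdf2l1 at 784.6, and Canx, second in untreated cells at 1 h, stood at 489.2, ahead of Hyou1 at 466.0, Manf at 423.4 and Pdia6 at 421.7.

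Among the HSP-family chaperones, Hspa5 was at 860 and 826 CPM in wild-type and at 778, 825 and 796 CPM in Nrf2 -/- untreated libraries. After 8 h of thapsigargin it was at 8892 and 7809 CPM in wild-type and at 8642, 9127 and 9413 CPM in Nrf2 -/- libraries. Every treated library lay far above every untreated one, and the fold was 10.6 (95% interval 9.79 to 11.5; adjusted p = 5.93e-37). Hsp90b1, which folds receptors and other clients late in their maturation, was at 672 and 654 CPM in wild-type and 645, 636 and 704 CPM in Nrf2 -/- untreated libraries. It reached 6750 and 7224 CPM in treated wild-type and 6078, 6411 and 7119 CPM in treated Nrf2 -/- libraries, a 10.2-fold rise (9.4 to 11.1). Hyou1 moved further than the chaperone it serves. It went from 245 and 243 CPM in wild-type and 231, 217 and 240 CPM in Nrf2 -/- libraries to 3820 and 3369 CPM and to 3447, 3331 and 3356 CPM. This was a 14.7-fold rise (13.7 to 15.9), and its interval lay above that of Hspa5. No member's untreated and treated libraries met in this group.

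The lectin chaperones rose least. Calr was at 1166 and 1209 CPM in wild-type and 1129, 1106 and 1081 CPM in Nrf2 -/- untreated libraries, and at 3913 and 3141 CPM and 3543, 3846 and 3891 CPM after thapsigargin. Its log2 fold was 1.67 (SE 0.06). Canx went from 1174 and 1189 CPM in wild-type and 1146, 1106 and 1012 CPM in Nrf2 -/- libraries to 2403 and 2063 CPM and to 2150, 2319 and 2296 CPM, a log2 fold of 0.98 (SE 0.05). Both changes were larger than the spread between libraries, with no overlap. The isomerases differed from each other in the size of the rise: Pdia4 had a log2 fold of 3.53 (95% interval 3.42 to 3.64) and Pdia6 of 2.39 (2.23 to 2.55). Both carry several thioredoxin-like domains and act on disulfide bonds, and Pdia6 is also known to bind the IRE1 sensor.

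Creld2 rose most of the 10, and the estimate of Sdf2l1 came next. Creld2 was at 50.9 and 47.6 CPM in wild-type and 47.2, 45.1 and 48.2 CPM in Nrf2 -/- untreated libraries. After thapsigargin it was at 1189 and 1012 CPM in wild-type and at 1112, 1112 and 1155 CPM in Nrf2 -/- libraries. The fold was 23.2 (95% interval 21 to 25.6), and this interval lay above those of the other 9 members. Sdf2l1 ranged from 48.8 to 62.3 CPM untreated and from 755 to 952 CPM treated, a 15.3-fold rise (13.7 to 17.1). This interval overlapped that of Hyou1 given above, so the order of these genes is not settled. Manf ranged from 138 to 151 CPM untreated and from 1304 to 1517 CPM treated, a 9.76-fold rise (9.11 to 10.4), the seventh of the 10 by fold. Of the 6 genes with a full ERSE, printed above, the log2 folds ran from 0.98 in Canx to 4.53 in Creld2, and Sdf2l1, with neither form, rose by 3.93. Without the library labelled Nrf2 -/- untreated 8 h replicate 3, all 10 still rose, with log2 folds from 0.96 to 4.55. In these bulk samples, fewer cells of a type and less RNA per cell cannot be told apart. The mature oligodendrocyte marker list summed to 6990 to 8610 CPM in untreated and 2190 to 2930 CPM in treated libraries at 8 h, the lineage list to 1900 to 2090 and 913 to 1020 CPM, the precursor list to 4140 to 4810 and 2260 to 2990 CPM, the neuron list to 1660 to 1740 and 848 to 1050 CPM, and the astrocyte list to 276 to 311 and 99.0 to 110 CPM. The part of these shifts in the rise of the members was not tested.

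**Figure D2:**
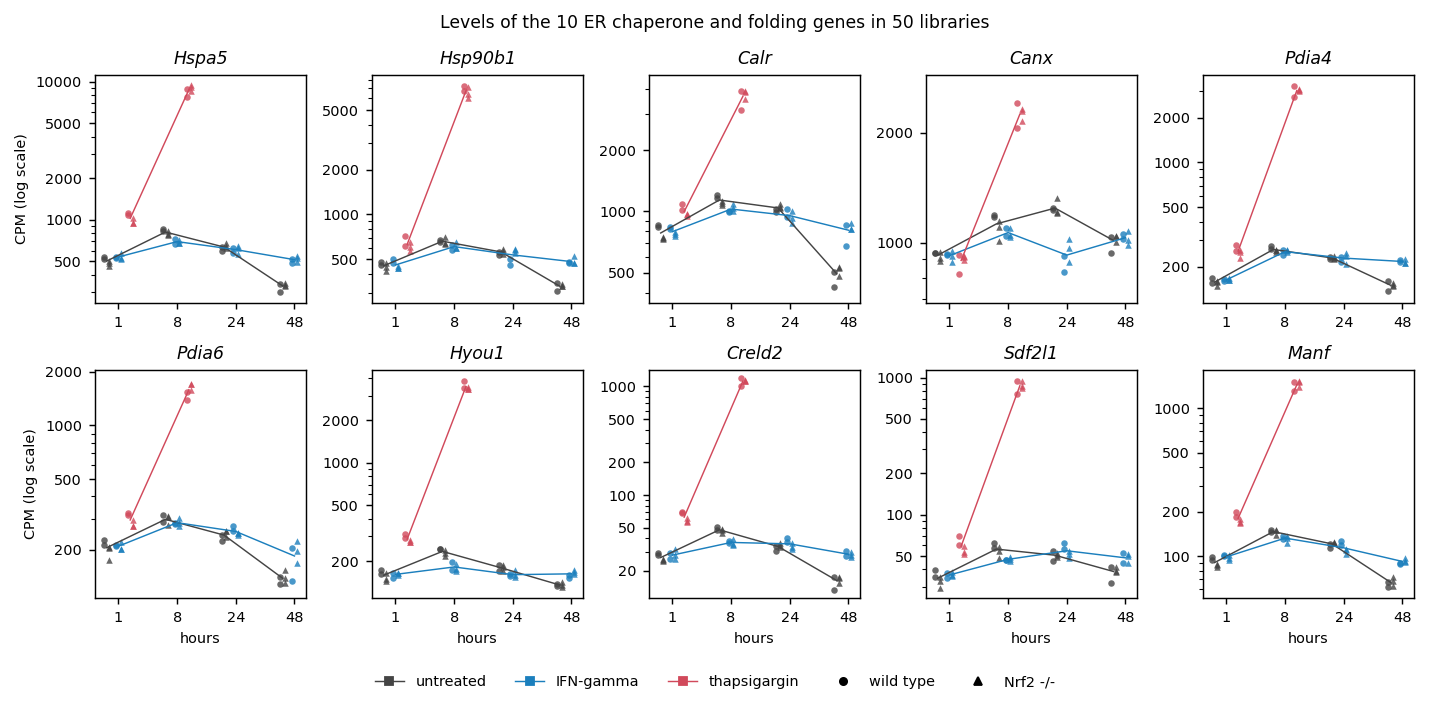
Level of each member in CPM (log scale, a separate scale per panel) against the hour (evenly spaced); each point is 1 library, circles wild type and triangles Nrf2 -/-, and lines join the means of 5 libraries. Thapsigargin at 8 h lies above all other libraries in every panel, and at 48 h the untreated libraries lie below the IFN-γ libraries in every panel but those of Canx and Pdia6, where the ranges overlap.

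After 1 h of thapsigargin 9 of the 10 members had already risen, by 1.27-fold in Calr to 2.36-fold in Creld2, and Canx had not passed the test. The 9 were called higher where 12.9% of all tested genes were (edgeR), and each was separated from the untreated libraries within both genotypes, as in 13.4% of all genes. The members' share of all counts was 0.342 to 0.378% in untreated and 0.487 to 0.522% in treated libraries. Creld2 went from 28.2 and 29.1 CPM in wild-type and 25.7, 25.2 and 24.6 CPM in Nrf2 -/- libraries to 68.3 and 69.2 CPM and to 57.5, 56.8 and 61.0 CPM, a log2 fold of 1.24 (SE 0.06). Hspa5 was at 537 and 523 CPM in wild-type and 505, 467 and 486 CPM in Nrf2 -/- untreated libraries. In treated libraries it was at 1076 and 1118 CPM in wild-type and at 947, 950 and 1040 CPM in Nrf2 -/- cells, a log2 fold of 1.03 (SE 0.05). The lowest treated library was above the highest untreated one in both genes. Manf followed at 0.99, Hyou1 at 0.85, Sdf2l1 at 0.78, Pdia4 at 0.69, Pdia6 at 0.52, Hsp90b1 at 0.48 and Calr at 0.34 (log2 fold, SE 0.04 to 0.07). Canx was at 939 and 936 CPM in wild-type and 944, 889 and 910 CPM in Nrf2 -/- untreated libraries, and at 819 and 923 CPM and 895, 919 and 915 CPM after 1 h. These ranges overlapped (log2 fold -0.06, 95% interval -0.16 to 0.04, adjusted p = 0.472).

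The rise at 8 h was larger than that at 1 h in all 10 members when the difference of the 2 responses was tested, where 27.1% of all genes had a larger response at 8 h. The difference was 3.30 on the log2 scale in Creld2, 2.87 in Hsp90b1, 2.38 in Hspa5 and 1.04 in Canx. Without the library labelled Nrf2 -/- untreated 8 h replicate 3 all 10 were still called, at 1.02 to 3.31. The order of the members changed between the hours. Hsp90b1, eighth of 10 by fold at 1 h, was sixth at 8 h. At 1 h its fold was 1.40 (95% interval 1.30 to 1.51) and that of Hspa5 2.04 (1.90 to 2.19), and at 8 h their intervals overlapped.

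Transcript-level estimates showed a further change at 1 h. Annotations list, beside a gene's coding transcripts, noncoding transcripts in which an intron is retained, and 6 of the 10 members have such transcripts: Hspa5, Hsp90b1, Calr, Pdia6, Hyou1 and Manf. This measure was chosen after transcript values had been seen. Its unit is the share of the gene's kallisto estimated counts that were assigned to retained-intron transcripts, and it was tested with limma on the log2 ratio of retained-intron to other transcripts in 5669 genes. After 1 h of thapsigargin the share rose in all 6 members, where it rose in 1.31% and fell in 18.8% of the genes tested. Over all genes tested the median change was -0.27, and the 6 members changed by 0.93 to 2.37.

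Pdia6 had a share of 3.33 and 2.29% in wild-type and 4.34, 4.42 and 3.71% in Nrf2 -/- untreated libraries. After 1 h of thapsigargin it was at 14.91 and 13.96% in wild-type and at 18.54, 14.38 and 16.25% in Nrf2 -/- libraries, a change of 2.37 (SE 0.14, adjusted p = 2.3e-14). Hsp90b1 went from 1.53 and 1.4% in wild-type and 1.82, 1.4 and 1.53% in Nrf2 -/- libraries to 7.07 and 6.35% and to 8.73, 7.21 and 7.91%, a change of 2.35 (SE 0.13). Treated and untreated libraries were far apart in both genes. Hyou1 rose from 6.28 to 7.27% to 18.05 to 24.53%, Calr from 9.75 to 11.4% to 17.82 to 20.45%, and Manf from 8.81 to 10.1% to 14.88 to 18.29%. Hspa5, whose share is the smallest, rose from 0.33 to 0.51% to 1.12 to 2.02%. All 6 were separated within each genotype, as in 1.75% of the genes tested. In Hsp90b1, Calr, Pdia6, Hyou1 and Manf the 5 thapsigargin 1 h libraries lay above all 45 other libraries of the series, and in Hspa5 they overlapped with them (0.26 to 1.38% in the other libraries).

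By 8 h, when the genes themselves were at their highest, the shares overlapped again with those of untreated cells, in at least 1 genotype, in 5 of the 6. Pdia6 was at 3.36 to 5.04% with thapsigargin and 4.51 to 5.38% without, and Hsp90b1 at 1.99 to 2.65% and 1.95 to 2.57%. The changes of the 6 members ran from -0.36 in Hyou1 (95% interval -0.62 to -0.11, adjusted p = 0.0516) to 0.15 in Calr (-0.04 to 0.34). Only Manf passed the limma test, with a lower share (change -0.27, SE 0.09, adjusted p = 0.0349), where 7.96% of the genes tested rose and 5.22% fell. Its treated libraries, at 8.75 and 7.7% in wild-type and 9.65, 9.6 and 8.98% in Nrf2 -/- cells, lay below the untreated ones of the same genotype, at 10.42 and 9.04% and at 10.79, 11.96 and 10.86%. Manf no longer passed when any of these was left out: wild-type untreated 8 h replicate 1 (adjusted p = 0.194), wild-type thapsigargin 8 h replicate 2 (0.166), Nrf2 -/- untreated 8 h replicate 2 (0.0869) and Nrf2 -/- thapsigargin 8 h replicate 3 (0.0683). Hyou1 was called lower (-0.50 to -0.40) when wild-type untreated 8 h replicate 1, wild-type thapsigargin 8 h replicate 2 or replicate 1 of either Nrf2 -/- condition was dropped. It was also called with an offset of 5 (-0.37) or a mean of at least 50 estimated counts (-0.36). Without the library labelled Nrf2 -/- untreated 8 h replicate 3, Manf was still called (-0.29) and the changes ran from -0.33 to 0.16. With IFN-γ for 1 h the changes ran from -0.19 to 0.12, all with 95% intervals that include 0, where 0.335% of genes rose and 0.194% fell. Among 877 other genes that rose at 1 h the share rose in 23 (2.62%), among the 324 of them whose fold was at least that of the member that rose least (0.34 in Calr) in 14 (4.32%), and among 4739 genes not called higher in 44 (0.928%). Among the genes with a risen share were also Xbp1 (1.36), the factor that drives chaperone genes, and the disulfide isomerase Pdia3 (1.59), both named after their values were seen. Reads of unspliced precursor RNA and of retained-intron transcripts cannot be told apart in these estimates. Counted over protein-coding transcripts only, the rise of the gene at 1 h was smaller in some members with a risen share. The log2 fold of Pdia6 went from 0.50 over all transcripts to 0.22 (edgeR adjusted p = 0.0426) and that of Hyou1 from 0.84 to 0.57. That of Calr went from 0.35 to 0.18 (adjusted p = 0.0365) and that of Hspa5 from 1.04 to 0.99. All 9 remained called higher.

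**Figure D3:**
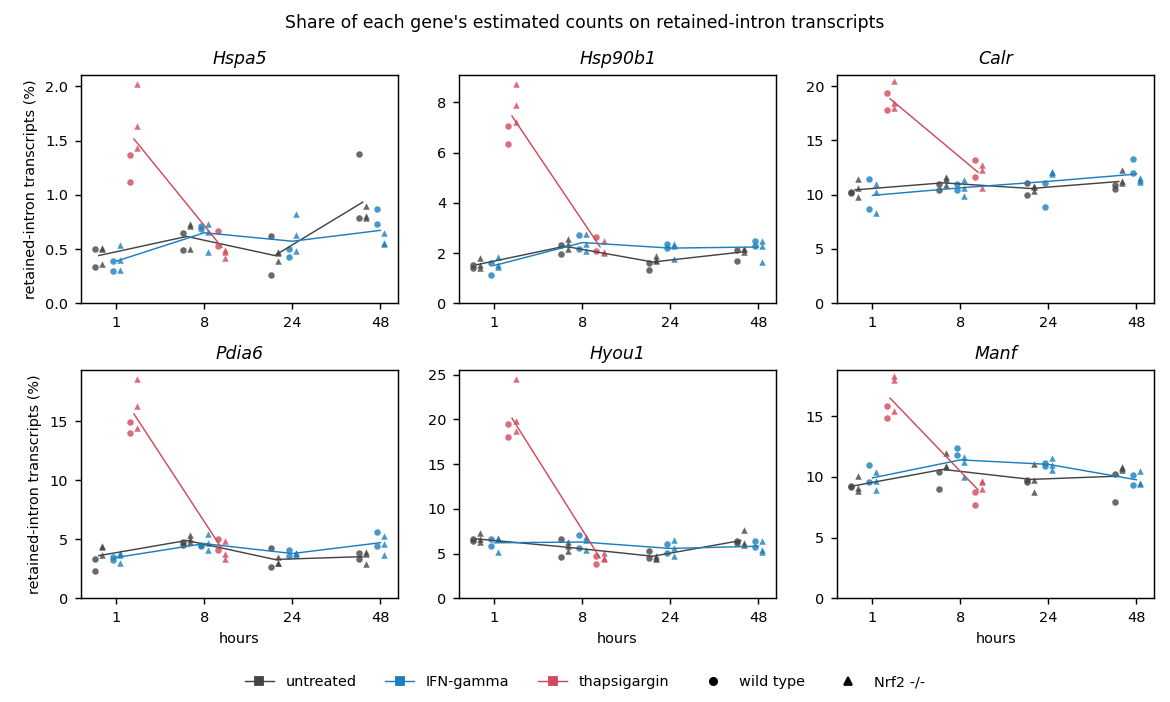
Share of each gene's estimated counts on retained-intron transcripts, in percent, against the hour (evenly spaced), for the 6 members with such transcripts; each point is 1 library, circles wild type and triangles Nrf2 -/-, and lines join means. The thapsigargin 1 h libraries stand above all other libraries in every panel but that of Hspa5, where 1 untreated 48 h library reaches 1.38%, and at 8 h the thapsigargin and untreated libraries overlap, but for Manf within each genotype, where the thapsigargin libraries lie below.

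IFN-γ gave changes that were small beside those of thapsigargin and that turned direction with time. After 1 h no member passed the edgeR test, where 3.64% of all genes did, and DESeq2 also called none. An unadjusted p below 0.05 was seen in 1 member, Manf, and in 1757 of all 16460 genes. After 8 h, 6 of the 10 were lower, where 20.4% of all genes were lower. Creld2 fell most: it was at 50.9 and 47.6 CPM in wild-type and 47.2, 45.1 and 48.2 CPM in Nrf2 -/- untreated libraries, and at 35.8 and 37.4 CPM and 39.1, 35.5 and 35 CPM with IFN-γ (log2 fold -0.39, SE 0.06, adjusted p = 1.23e-06). Hyou1 fell from between 217 and 245 CPM to between 171 and 198 CPM (-0.37, SE 0.05). Hspa5 fell from between 778 and 860 CPM to between 667 and 728 CPM (-0.24, SE 0.05). These 3 genes and Manf (-0.14) were separated from untreated libraries within both genotypes, as in 16.5% of all genes. Sdf2l1 (-0.26) and Calr (-0.16) also passed the test with overlapping libraries, and Hsp90b1, Canx, Pdia4 and Pdia6 did not pass (log2 -0.12 to -0.06). The Calr call ended without wild-type untreated 8 h replicate 2 (adjusted p = 0.0669), with the 3 libraries of conflicting labels counted as wild type (0.062) and over protein-coding transcripts only (0.0773). Hsp90b1 was called lower without Nrf2 -/- untreated 8 h replicate 2 (-0.14), Nrf2 -/- IFN-γ 8 h replicate 2 (-0.15) or the 3 libraries of conflicting labels (-0.16), and with all genes of any count kept (-0.14). Upper-quartile scaling gave 8 lower members, adding Hsp90b1 (-0.16) and Canx (-0.12). Without the library labelled Nrf2 -/- untreated 8 h replicate 3, the same 6 genes were called, and without it and wild-type untreated 8 h replicate 1 together, Manf was lost (adjusted p = 0.0703). At 8 h the mature marker list summed to 6990 to 8610 CPM untreated and 4220 to 4950 CPM with IFN-γ, the precursor list to 4140 to 4810 and 2740 to 3620 CPM, and the microglial list to 1.24 to 1.93 and 3.39 to 4.68 CPM. Their part in the fall of the members was not tested. Thapsigargin and IFN-γ at 1 and 8 h were compared with the same untreated libraries. Set directly against IFN-γ at 8 h, thapsigargin gave higher levels of all 10 members, where 34.1% of all genes were higher, by 1.07 in Canx to 4.93 in Creld2 on the log2 scale.

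After 24 h of IFN-γ only 2 members differed from untreated cells by the edgeR test, both lower, where 28.4% of all genes were lower. Canx, the member least affected by thapsigargin, was at 1247 and 1228 CPM in wild-type and 1210, 1205 and 1326 CPM in Nrf2 -/- untreated libraries. With IFN-γ it was at 831 and 917 CPM in wild-type and at 883, 967 and 1025 CPM in Nrf2 -/- libraries, with no overlap (log2 fold -0.44, SE 0.05, adjusted p = 2.86e-10). Hyou1 had a log2 fold of -0.16 (SE 0.05) with overlapping libraries. It did not pass when wild-type replicate 1 of either 24 h condition was left out (adjusted p = 0.0625 for IFN-γ and 0.101 for untreated). Without that untreated library, Creld2 (0.17) and Sdf2l1 (0.21) were called higher, and without Nrf2 -/- untreated 24 h replicate 3 Creld2 was (0.15); without Nrf2 -/- IFN-γ 24 h replicate 3, Calr was called lower (-0.14). At 24 h the mature marker list summed to 16800 to 21500 CPM untreated and 5670 to 7460 CPM with IFN-γ. The precursor list summed to 2400 to 2720 CPM untreated and 2760 to 3700 CPM with IFN-γ. For the lineage list the sums were 1300 to 1560 and 1710 to 2240 CPM, in the same order. Their part in these differences was not tested.

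At 48 h the direction was the opposite, and 9 of 10 members were higher with IFN-γ than without, where 27.3% of all genes were higher. Creld2 was at 17.6 and 13.4 CPM in wild-type and 17.7, 15.6 and 17.2 CPM in Nrf2 -/- untreated libraries, and at 30.6 and 27.2 CPM and 29.7, 26.7 and 28.2 CPM with IFN-γ. This was a 1.77-fold difference (95% interval 1.61 to 1.93) with no overlap. Calr, which with Canx also assists the assembly of MHC class I molecules, was at 506 and 425 CPM in wild-type and 533, 530 and 480 CPM in Nrf2 -/- untreated libraries. With IFN-γ it was at 675 and 854 CPM in wild-type and 822, 878 and 817 CPM in Nrf2 -/- libraries, 1.64-fold higher (1.51 to 1.77). Hspa5 went from 345 and 299 CPM and 349, 333 and 336 CPM to 486 and 518 CPM and 493, 527 and 552 CPM, 1.55-fold higher (1.45 to 1.67). In these 3 genes all IFN-γ libraries were above all untreated ones. The log2 folds of the others were 0.55 in Hsp90b1, 0.53 in Pdia4, 0.47 in Manf, 0.40 in Pdia6, 0.34 in Sdf2l1 and 0.25 in Hyou1. Of the 9, 8 were separated within both genotypes, as in 21.2% of all genes. Pdia6 was not: its wild-type IFN-γ libraries were at 134 and 204 CPM, beside 142 and 128 CPM untreated. Canx was at 934 to 1045 CPM untreated and 988 to 1075 CPM with IFN-γ, which overlapped (log2 fold 0.03, 95% interval -0.06 to 0.13, adjusted p = 0.566).

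The response at 48 h differed from that at 8 h in 9 members when the difference itself was tested, where 21.4% of all genes had a higher response at 48 h; Canx had a difference of 0.12 (adjusted p = 0.152). The same 9 were called, from 0.45 in Pdia6 to 1.2 in Creld2, without the library labelled Nrf2 -/- untreated 8 h replicate 3. The levels show where the 48 h difference lies in time. From 24 to 48 h, untreated cells fell in all 10 members. IFN-γ cells fell over the same hours in 6 (Hspa5, Calr, Manf, Pdia6, Creld2 and Sdf2l1, by 0.19 to 0.49 on the log2 scale), where 21.3% of all genes fell, and rose in Canx by 0.17, where 23.2% rose. No member but Canx was called higher at 48 h than at 24 h in IFN-γ cells, and in all 10 the mean level in IFN-γ cells at 48 h was below that of untreated cells at 8 h. Without wild-type IFN-γ 24 h replicate 1 the rise of Canx (adjusted p = 0.0592) and the fall of Sdf2l1 (0.101) were not called and a fall of Hsp90b1 was (-0.17). Sdf2l1 also failed to pass when replicate 2 of either genotype at IFN-γ 48 h (adjusted p = 0.191 wild type, 0.0825 Nrf2 -/-) or Nrf2 -/- IFN-γ 24 h replicate 3 (0.0705) was dropped, and Hsp90b1 was also called lower without Nrf2 -/- IFN-γ 24 h replicate 2 or 3 or Nrf2 -/- IFN-γ 48 h replicate 3 (-0.15 to -0.13). The comparison of 48 with 24 h in IFN-γ cells was added after the values had been seen. Since library numbers run in blocks by hour, changes between hours within a condition cannot be told apart from changes with library order. At 48 h the mature oligodendrocyte marker list summed to 32400 to 37900 CPM untreated and 15600 to 20100 CPM with IFN-γ. The precursor list summed to 2040 to 2310 and 2700 to 3440 CPM, the neuron list to 673 to 803 and 1170 to 1360 CPM, and the microglial list to 3.16 to 4.38 and 4.71 to 6.29 CPM, in each case untreated first. The part of these shifts in the members' difference was not tested.

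**Figure D4:**
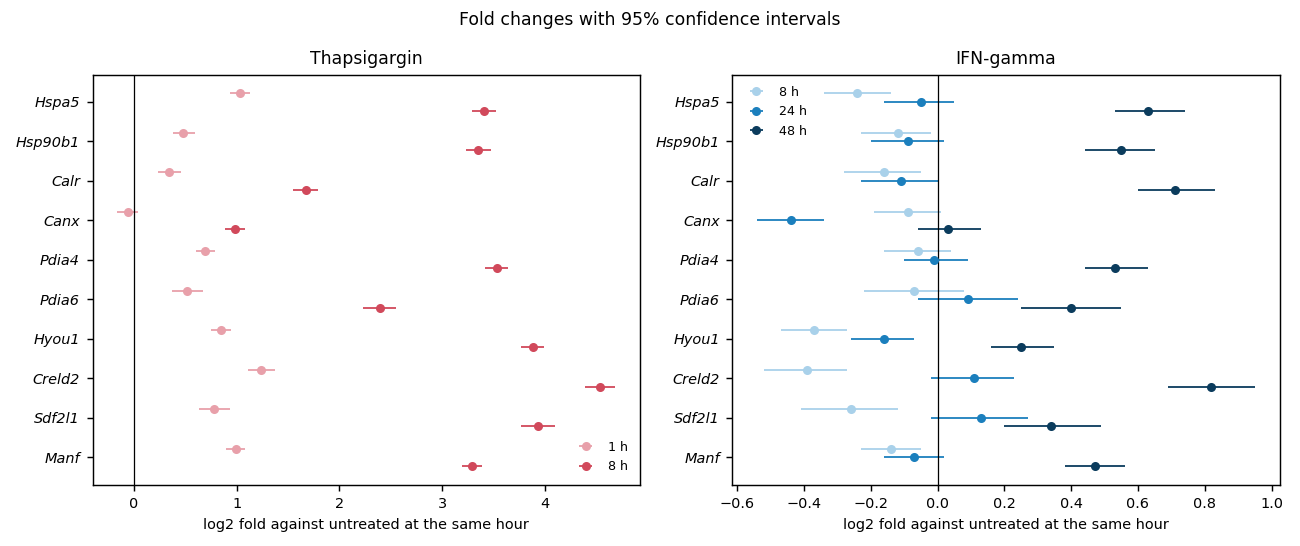
Log2 fold of each member against untreated cells of the same hour, averaged over both genotypes with equal weight, for thapsigargin (left, 1 and 8 h) and IFN-γ (right, 8, 24 and 48 h); points are estimates and bars 95% confidence intervals of the edgeR model. The 8 h thapsigargin folds run from 0.98 to 4.53, and the IFN-γ folds stay between -0.44 and 0.82, with all 10 estimates below 0 at 8 h and above 0 at 48 h, where the interval of Canx includes 0.

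In untreated cells, which went on differentiating over these hours, the members first rose and then fell. Libraries are numbered in blocks by hour, so these changes cannot be told apart from changes with library order. From 1 to 8 h all 10 rose, where 20% of all genes rose, with log2 changes from 0.29 in Canx to 0.84 in Creld2; Hspa5 went from 467 to 537 CPM at 1 h to 778 to 860 CPM at 8 h. All were separated within both genotypes, as in 17.4% of all genes, and without the library labelled Nrf2 -/- untreated 8 h replicate 3 all 10 still rose (0.32 to 0.83). From 8 to 24 h, 8 of 10 fell, where 24.4% of all genes fell, by 0.14 in Calr to 0.53 in Creld2. Canx was called higher (0.13, adjusted p = 0.0231, where 23.3% of all genes were higher), and Sdf2l1 did not pass (-0.16, adjusted p = 0.0549). Without the library labelled Nrf2 -/- untreated 8 h replicate 3 the Canx call was lost (adjusted p = 0.0731) and 8 members were called lower. Dropping replicate 1 of the wild type at 8 h (0.0671) or 24 h (0.0711), or replicate 3 of Nrf2 -/- at 24 h (0.111), ended it too. The Calr call ended when replicate 2 of either genotype at 24 h, wild-type replicate 2 at 8 h or Nrf2 -/- replicate 1 at 8 h was dropped (adjusted p 0.0553 to 0.0991). It ended as well with DESeq2 (0.0514), with transcript-level counts (0.219), over protein-coding transcripts only (0.0549), and with the 3 libraries of conflicting labels left out (0.0525) or counted as wild type (0.0682). Sdf2l1 was called lower once Nrf2 -/- replicate 2 at 8 h, wild-type replicate 1 at 24 h or Nrf2 -/- replicate 3 at 24 h was dropped (-0.23 to -0.19), with upper-quartile scaling (-0.22), without the 3 libraries of conflicting labels (-0.20) and in the fit on these groups alone (-0.17). From 24 to 48 h all 10 fell, where 25.7% of all genes fell. Calr fell most, from 1034 and 999 CPM in wild-type and 1046, 1039 and 1084 CPM in Nrf2 -/- libraries to 506 and 425 CPM and to 533, 530 and 480 CPM (log2 change -1.08, SE 0.06). Creld2 fell by 1.04, Hspa5 by 0.93, Manf by 0.86, Pdia6 by 0.80, Hsp90b1 by 0.76, Pdia4 by 0.61, Sdf2l1 by 0.41, Hyou1 by 0.40 and Canx by 0.30 on the log2 scale. Libraries of the 2 hours did not overlap in any of the 10, as in 20.7% of all genes.

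At 48 h, 7 of the 10 were below their level at 1 h, where 33.6% of all genes were, from -0.24 in Hyou1 to -0.73 in Creld2 on the log2 scale. Pdia4 (-0.08) and Sdf2l1 (0.13) did not pass the test. Pdia4 was called lower with upper-quartile scaling (-0.20, adjusted p = 0.000388) and without replicate 1 at 48 h of the wild type (-0.14) or of Nrf2 -/- (-0.11), and Sdf2l1 was called higher without wild-type 48 h replicate 2 (0.22). Canx was called higher (0.12, adjusted p = 0.0248, where 34.5% of all genes were higher), but its libraries overlapped, and with upper-quartile scaling the change was -0.00 (adjusted p = 0.976). It also ended when any of these was dropped: at 1 h, wild-type replicate 1 or 2 or Nrf2 -/- replicate 2 or 3, and at 48 h, wild-type replicate 1 or Nrf2 -/- replicate 1 or 2 (adjusted p 0.0526 to 0.169). The members' share of all counts was 0.342 to 0.378% at 1 h, 0.478 to 0.525% at 8 h and 0.237 to 0.267% at 48 h. Over the same hours the mature marker list went from between 4330 and 5670 CPM to between 32400 and 37900 CPM the precursor list from between 4890 and 5710 CPM to between 2040 and 2310 CPM, and the neuron list from between 1450 and 1670 CPM to between 673 and 803 CPM. Their part in the members' change was not tested.

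Loss of Nrf2 was not seen to change any member. In the direct genotype comparisons, averaged over the hours of each condition, 0 of 10 were called in untreated, IFN-γ or thapsigargin cells by edgeR, where 0.0243%, 0.0547% and 0.51% of all genes were called. Their log2 differences ran from -0.05 to -0.00 untreated, from -0.04 to 0.05 with IFN-γ and from -0.11 to 0.04 with thapsigargin. At an unadjusted p below 0.05, 0 members passed untreated, 0 with IFN-γ and 2 with thapsigargin. Of all 16460 genes, 1100, 1472 and 1549 passed, in the same order. The 2 members were Hyou1 at -0.10 and Hsp90b1 at -0.11, both lower in Nrf2 -/- cells, and DESeq2 called 0 members. The difference between genotypes in each response was tested in the same model, and again 0 members were called at any hour of either treatment or in the untreated change from 1 to 48 h, where 0.0% of all genes were called. In the 8 h thapsigargin response the genotype difference of Creld2 was 0.11 (95% interval -0.14 to 0.35) and that of Hspa5 0.19 (-0.01 to 0.40). The library whose Nfe2l2 level went against its label is counted as Nrf2 -/- here. With it left out these values were 0.13 and 0.19, and 0 members were called in either 8 h response or in the untreated genotype comparison (-0.06 to -0.01). At an unadjusted p below 0.05, 2 members passed in the 24 h IFN-γ response (Manf at -0.25 and Creld2 at -0.29), where 1237 of all 16460 genes passed. In the untreated change 4 passed (Calr, Manf, Creld2 and Sdf2l1, at 0.21 to 0.33), where 1200 of all genes passed. DESeq2 called none of the 10. Without wild-type IFN-γ 48 h replicate 2, Pdia6 had a larger 48 h IFN-γ response in Nrf2 -/- cells (0.49, adjusted p = 0.029), in a fit in which 780 genes were called. In the library that then stood alone, wild-type IFN-γ 48 h replicate 1, Pdia6 was at 134 CPM and Calr at 675 CPM, the lowest IFN-γ values at that hour for both.

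Other genes of ER protein folding were given by a list of 48, all tested. At 8 h of thapsigargin 42 of them rose and 4 fell (median log2 1.46), where 34.3% of all tested genes rose and 32.9% fell (median 0.01). The largest changes were in the oxidase Ero1lb (4.32), the cochaperones Dnajb9 (3.35) and Dnajc3 (3.23) and the isomerase Pdia5 (3.22). At 1 h, 14 rose and 5 fell (median 0.04), where 12.9% of all genes rose and 7.52% fell, led by Fkbp7 (1.07), a prolyl isomerase, and Creld1 (0.60), the relative of Creld2. With IFN-γ for 8 h, 3 rose and 17 fell (median -0.09), where 19.4% of all genes rose and 20.4% fell. At 24 h, 6 rose and 26 fell (median -0.17), where 27.6% rose and 28.4% fell. At 48 h, 15 rose and 9 fell (median 0.07), where 27.3% of all genes rose and 28.5% fell, with Rcn1, a calcium-binding protein, at 2.61 and the chaperone Clgn at -0.69. In untreated cells, 20 rose and 7 fell from 1 to 8 h, where 20% of all genes rose and 16.7% fell. From 8 to 24 h 21 rose and 5 fell, where 23.3% rose and 24.4% fell. From 24 to 48 h 7 rose and 26 fell, with Pdia5 at -1.45, where 27.4% of all genes rose and 25.7% fell. Over the whole span from 1 to 48 h 24 rose and 14 fell, where 34.5% rose and 33.6% fell.

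The list of sensors and regulators of the unfolded protein response held 16 genes, all tested, and is set against the same shares of all genes. At 1 h of thapsigargin 6 rose and 1 fell, with Ddit3 at 3.30, Xbp1 at 1.74 and Atf4 at 1.19. At 8 h 13 rose and 1 fell, with Ddit3 at 5.85, Ppp1r15a at 4.35 and Atf6 at 2.54. Trib3, an inhibitor of kinases that ATF4 and CHOP induce, was at 0.0788 to 0.505 CPM untreated and 385 to 486 CPM treated at 8 h. With IFN-γ 2 rose and 5 fell at 8 h, and 2 rose and 6 fell at 24 h. Trib3 rose at both hours (3.05, SE 0.26, and 2.27, SE 0.33). At 8 h this rise starts from the low untreated level given above. Trib3 met the mean of at least 5 CPM for naming mainly through the thapsigargin 8 h libraries. Its IFN-γ folds are therefore not read as the leading change of this list. At 48 h 5 rose and 7 fell (median -0.13), with Xbp1 at 0.98 and, under the same limit, Trib3 at 1.71 (SE 0.31). Ddit3, which encodes CHOP, was at -0.46 and Creb3l2 at -1.22. From 24 to 48 h in untreated cells 4 rose and 6 fell (median 0.11), and Xbp1 fell by 1.39.

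A further pair of lists held chaperones outside the ER. Of 23 cytosolic chaperones tested, 4 rose and 9 fell at 8 h of thapsigargin (median -0.06), where 34.3% of all genes rose and 32.9% fell. Among those that fell were the HSP70 gene Hspa8 at -1.26 and Hsph1 at -0.96. Of 10 mitochondrial chaperones and proteases 8 rose and 0 fell (median 0.40), with Hspa9, the mitochondrial HSP70, at 2.36 and its cochaperone Dnaja3 at 1.16.

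Across the series the members varied together. Pearson correlations of log2 levels (CPM + 0.5) between pairs of members over the 20 group means ran from 0.859 (Calr and Canx) to 0.999 (Hspa5 and Manf). These values rest largely on the thapsigargin groups, since over the other 16 groups the lowest was 0.284 (Canx and Pdia6). Genes that are no members were ranked by their correlation with the mean of the 10 over the same 20 group means, among genes with a mean of at least 5 CPM. The closest were Mthfd2, a mitochondrial enzyme of folate metabolism (0.994), Rpn1, a subunit of the oligosaccharyltransferase (0.991), Uhrf1bp1 (0.987), Slc35b1, a carrier of the ER membrane (0.986), Lrrc59 (0.985) and Mogs, the glucosidase that trims new glycans (0.985). Over all 50 libraries the same genes had 0.981 to 0.993. Among them Mthfd2 (1.61), Slc35b1 (0.56) and Rpn1 (0.53) were also genes whose retained-intron share rose at 1 h of thapsigargin. All points share library preparation and scaling, and the correlations are given as a description.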

How the data were processed

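The authors deposited 1 table of read counts per gene and 1 of estimated counts per transcript, per the file headers, and the submitters' processing notes list STAR, featureCounts, kallisto and edgeR without versions. The deposited counts and estimated counts carry no scaling. The sources used here do not give the genome build, the annotation or the use of strand. Of 39056 gene entries, 38872 matched GENCODE M21 (GRCm38), which gave names and coordinates, and 111887 of 112588 transcripts were assigned to genes, holding 99.65% of estimated counts.

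Genes were kept by filterByExpr (16460 genes), scaled by the trimmed mean of M-values and tested in 1 model over all 20 groups with edgeR 4.0.16 (quasi-likelihood, robust), with Benjamini-Hochberg adjustment over all genes and a threshold of 0.05. The 44 comparisons average the 2 genotypes with equal weight unless a genotype is named. Groups not overlapping means that every library of one condition lies above every library of the other within each genotype. Retained-intron shares were tested with limma 3.58.1 on log2 ratios with an offset of 0.5, in genes with a mean of at least 10 estimated counts in both classes. Estimated counts summed per gene for count tests were rounded. DESeq2 1.42.0, other scaling, filters, fits and left-out libraries were alternatives. The edgeR and limma procedures were tested on simulated data. Gene lists name at most 4 called genes, those with the largest fold among genes with a mean of at least 5 CPM. The members and lists were chosen with earlier results of these data known. Promoters are those of RefSeq on GRCm38.p6.

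The tissue field of the labels names whole brain, the protocol cortex, and the series text gives 4 mutant replicates where 3 were analysed here.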

Additional observations from a re-analysis of the deposited data

Results flagged for a closer look

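The members' results differ between hours of the same treatment, by a test of the difference of the responses in the edgeR model, each response being taken against untreated cells of its own hour. The thapsigargin response at 8 h exceeded that at 1 h by 3.30 (Creld2), 3.15 (Sdf2l1), 3.03 (Hyou1), 2.87 (Hsp90b1), 2.83 (Pdia4), 2.38 (Hspa5), 2.29 (Manf), 1.87 (Pdia6), 1.32 (Calr) and 1.04 (Canx) on the log2 scale. The IFN-γ response at 48 h exceeded that at 8 h by 1.21 (Creld2), 0.88 (Calr), 0.87 (Hspa5), 0.67 (Hsp90b1), 0.62 (Hyou1), 0.61 (Manf), 0.61 (Sdf2l1), 0.59 (Pdia4) and 0.46 (Pdia6). Groups hold 2 or 3 libraries, so no single library was tested as standing apart.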

How the results depend on the processing

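No paired analysis was possible because the labels carry no replicate numbers; they were given in accession order and pair nothing. The members' calls for thapsigargin, for IFN-γ at 48 h, for the differences between hours and for untreated cells from 1 to 8 h and 24 to 48 h kept their direction and their side of the threshold under each alternative run, except that the Canx difference between IFN-γ 48 and 8 h was called (0.17) in the fit on the groups compared only and with upper-quartile scaling. Other counts changed as follows. With DESeq2, the genes called in the genotype difference of the response were 1 (thapsigargin 1 h), 2 (thapsigargin 8 h), 1 (IFN-γ 1 h), 2 (8 h), 13 (24 h), 5 (48 h) and 14 (untreated change), against 0 by edgeR, and by genotype 14 untreated, 53 with IFN-γ and 170 with thapsigargin, against 4, 9 and 84. A fit on only the groups compared gave 10 genes in the IFN-γ 1 h difference, 5 by genotype with IFN-γ and 50 with thapsigargin, 1 member higher at IFN-γ 24 h, and 0 higher from 24 to 48 h of IFN-γ. Upper-quartile scaling left 0 members higher from 8 to 24 h and 0 from 1 to 48 h untreated, where Canx was at -0.00; it moved the median of all genes from 1 to 48 h from -0.01 to -0.13. Keeping genes with any count gave 0 members higher from 1 to 48 h and 18 genes by genotype with IFN-γ. Transcript-level estimated counts gave 0 members higher from 1 to 48 h, 0 from 24 to 48 h of IFN-γ and 9 genes by genotype untreated. Protein-coding transcripts only, chosen after seeing the data, gave 0 members higher from 8 to 24 h and 0 from 1 to 48 h, 3 genes in the IFN-γ 24 h difference and 11 by genotype untreated. Without the 3 libraries whose labels conflict, 4 genes differed by genotype with thapsigargin and 0 members had a lower retained-intron share at 8 h; counted as wild type, 1, 5 and 0 genes differed by genotype (untreated, IFN-γ, thapsigargin), and 0 members had the lower share. Without the labelled Nrf2 -/- untreated 8 h replicate 3 and wild-type untreated 8 h replicate 1, also chosen after seeing the data, 0 members were higher from 8 to 24 h, 1 gene differed in the untreated change and 15 by genotype with IFN-γ. An offset of 5 or a mean of at least 50 estimated counts gave 2 members with a lower share at thapsigargin 8 h each, both chosen after seeing the data.

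Leaving out each replicate in turn gave these ranges. Members higher numbered 0 to 2 at IFN-γ 24 h (lower 1 to 3), 0 to 1 from 8 to 24 h, 0 to 2 from 1 to 48 h, 0 to 1 from 24 to 48 h of IFN-γ and 0 to 1 in the genotype difference at IFN-γ 48 h. Genes called in the genotype difference numbered 0 to 214 at thapsigargin 8 h, 0 to 1 at IFN-γ 8 h, 0 to 36 at 24 h, 0 to 780 at 48 h and 0 to 7 in the untreated change, and by genotype 3 to 7 untreated, 7 to 127 with IFN-γ and 2 to 124 with thapsigargin. The largest counts came without wild-type thapsigargin 8 h replicate 1 (214), wild-type untreated 24 h replicate 1 (36) and wild-type IFN-γ 48 h replicate 2 (780 and 127). The 84 genes by genotype with thapsigargin became 2 when wild-type replicate 2 at 1 h or Nrf2 -/- replicate 2 at 8 h was dropped, and 4 when wild-type replicate 2 at 8 h or Nrf2 -/- replicate 3 at 1 h was. Members with a lower retained-intron share at thapsigargin 8 h numbered 0 to 2, genes with a higher one 243 to 579, and at IFN-γ 1 h 10 to 28. Where a wild-type group was left with 1 library, it was assumed to vary like the other groups. The cause of these changes was not tested. Every member had at least 464 counts per library, and the limits set by depth and by the number of libraries were not compared.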

Other observations

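The coding transcripts of Hyou1, Manf and, by less, Hspa5 also shifted in their shares after 8 h of thapsigargin, when the retained-intron share no longer rose. Hyou1-206 made up 24.5 to 31.1% of the estimated counts of Hyou1 in the 5 thapsigargin 8 h libraries and 10.7 to 17.4% in the untreated 8 h libraries. Manf-202 made up 50.7 to 54.2% of those of Manf with thapsigargin and 32.8 to 36.9% without. Hspa5-202 made up 86.1 to 87.5% of those of Hspa5 with thapsigargin and 87.9 to 89.0% without. These transcripts were named after their values were seen, and the shares were not tested. How often transcript shares of other genes shift as far was not counted. The shifts are therefore not shown to be particular to the members.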
